A study of Homo sapiens with 18 samples.

Results

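H3K27ac, acetylation of lysine 27 of histone H3, was compared between PR-957 and DMSO in 4 Cut&Tag libraries, which are those labelled H3K27ac among the 16 libraries analysed of the series. In Cut&Tag an antibody guides the transposase Tn5 to a chromatin mark, and the DNA around it is cut, tagged and sequenced. The cells were MOLM-13, a human acute myeloid leukemia (AML) line with a rearranged KMT2A gene. Both groups were the same unmodified line and differed only in the agent, as 2 libraries came from cells kept in DMSO and 2 from cells given 100 nM PR-957, also called ONX-0914, an inhibitor of the immunoproteasome subunit PSMB8. The sample labels give 72 h of treatment, while a figure legend of the study gives a shorter time for the same experiment. The results hold for this single cell line. Neither the labels nor the methods say that the 2 libraries of a group came from separate cultures, so p-values measure only the spread between these libraries. For H3K27ac that spread was taken from a trend fitted over all loci, not from the libraries at each locus alone.

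H3K27ac is written by the acetyltransferases EP300 and CREBBP and lies on the promoters and enhancers of active genes, where bromodomain proteins bind acetylated histones. In leukemia with a rearranged KMT2A gene, the fusion protein recruits elongation factors and the methyltransferase DOT1L to a set of targets that includes the HOXA genes and their cofactors MEIS1 and PBX3, and these loci carry broad acetylated domains. The replication-dependent histone genes, most of them clustered on the short arm of chromosome 6, are transcribed in S phase to supply histones for new chromatin. The design asks which promoters and distal elements gained or lost this mark while PSMB8 was inhibited.

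The 4 libraries were counted by the authors on 74559 intervals, many of which overlap. Merging overlapping intervals gave 30670 loci that cover 102.547 Mb of the hg38 genome, and each locus was given the count of its widest interval. A total of 12060 loci (39.3%) lay within 2 kb of the transcription start site (TSS) of a protein-coding transcript and are called promoter loci, and the other 18610 are called distal loci. The total count per library was 9885836 to 14165777 over the intervals and 2958873 to 4265221 over the loci. Levels are CPM at loci, that is counts scaled to the same library total, after TMM scaling, and no spike-in is mentioned for these libraries, so every level is relative to the rest of the library. Since bulk cells were measured, less acetylation per cell and fewer cells that carry the mark cannot be told apart. All 12 marker genes of monocytic AML blasts that were looked up had a promoter locus with enough counts to test, SPI1, CEBPA and CD68 among them, as against 4 of 20 markers of other blood lineages, namely CD79A, EPOR, NCAM1 and PAX5. The first principal component, with 40.4% of the variance, set PR-957 replicate 1 apart, at 55.0 against -11.4, -19.2 and -24.4 for DMSO 1, DMSO 2 and PR-957 replicate 2. The correlation of log2 CPM across loci was 0.954 between the DMSO libraries and 0.934 between the PR-957 libraries, where loci are not independent replicates.

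Relative to the rest of each library, H3K27ac in PR-957 was close to its DMSO level at most loci. Losses outnumbered gains among the few loci that passed the test. Of 30621 loci tested, 40 (0.131%) had an adjusted p under 0.05 in edgeR's quasi-likelihood test and are referred to as called. Among 12057 promoter loci, 20 were called lower (0.166%) and 5 higher (0.0415%). Among 18564 distal loci, 13 were called lower (0.07%) and 2 higher (0.0108%). The excess of losses depended on the count filter. With only loci of a mean count of at least 50, 15 promoter loci were lower and 11 higher. In that fit 4 distal loci were lower and 5 higher. In all 40, both PR-957 libraries lay on one side of both DMSO libraries, which is no further evidence because the calls rest on these same values. Over all loci tested, both lay below at 17.6% and above at 17.7%. The count was 28 without DMSO 1, 18 without DMSO 2, 23 without PR-957 1 and 20 without PR-957 2, and DESeq2 called 18, each of them also called by edgeR. At an unadjusted p under 0.05 there were 999 promoter loci and 1093 distal loci. The median log2 fold change of PR-957 over DMSO was -0.01 for promoter loci and 0.02 for distal loci, and 95.7% and 88.3% of them lay within 1.5-fold of DMSO. Scaling within the library, without a spike-in, sets the bulk of loci near no change. These medians therefore cannot show whether acetylation rose or fell as a whole. The share of locus counts that fell on promoter loci was 67.8% and 68.3% in DMSO and 67.8% and 68.2% in PR-957, a difference of -0.033 percentage points that was within the spread of the replicates (exact two-sided permutation test, p = 1, where 2 against 2 cannot go below 0.333).

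Detection depended on the count. Of the 40 called loci, 30 were among the 6124 loci of the highest count class, with a mean count of at least 152.5 per library, and none were among the 6202 loci with a mean count of at most 28. When counts were simulated at the dispersion estimated here, 84 of 200 loci changed 2-fold were recovered (42%), and 23 of 200 changed 1.5-fold (11.5%), so smaller changes could pass undetected.

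**Figure D1:**
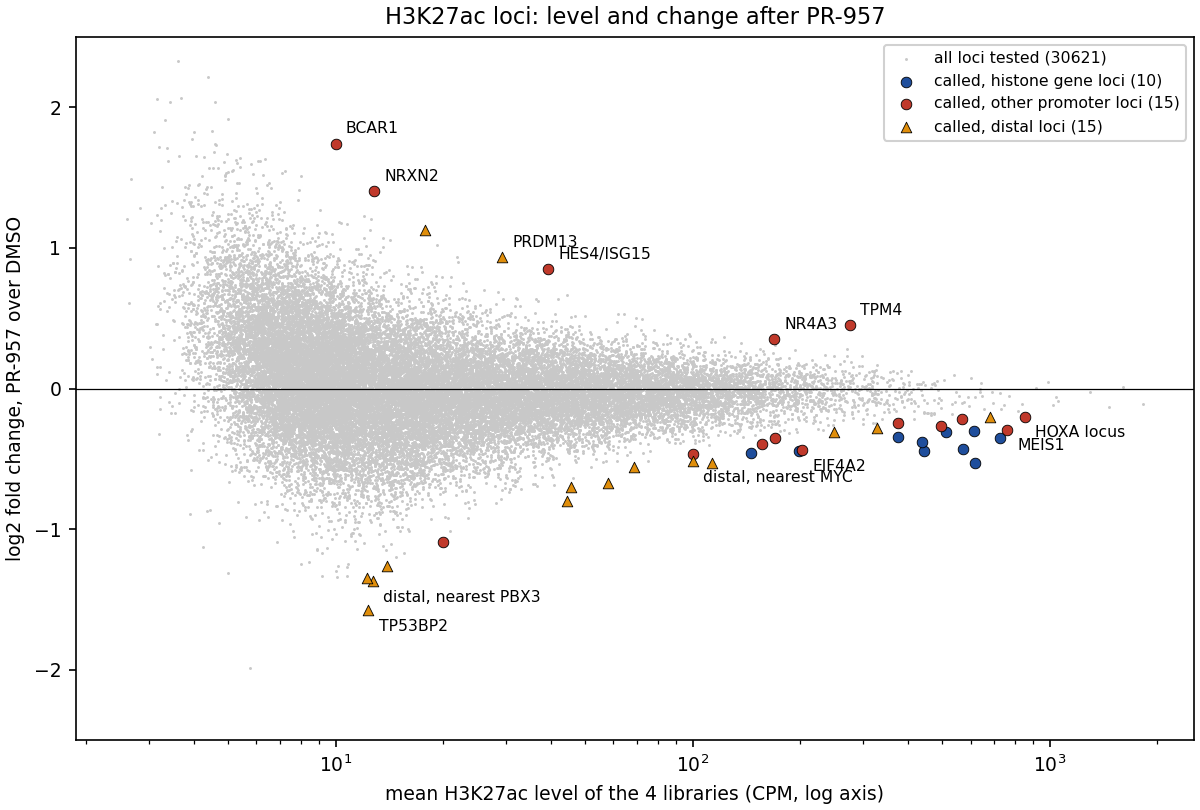
Each point is a merged H3K27ac locus, with the mean level of the 4 libraries in CPM on a log axis (horizontal) and the log2 fold change of PR-957 over DMSO (vertical). The 10 called histone gene loci, shown in blue, sit at high levels with log2 fold changes between -0.53 and -0.30, and the 7 loci called higher reach from 0.35 to 1.74.

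Histone gene loci made up 10 of the 20 promoter loci called lower. The sequence upstream of the start is shown for a gene of each histone class at these loci, and for MEIS1 as a called promoter of another kind, because the histone promoters are built around the same short elements. The 150 bases before the start are given from RefSeq (GRCh38.p14), 5′ to 3′ on the strand of the gene, and capitals mark CCAAT (or its reverse complement ATTGG) and TATAAA (or its reverse complement).
H2AC13, chr6:27808023-27808172, plus strand: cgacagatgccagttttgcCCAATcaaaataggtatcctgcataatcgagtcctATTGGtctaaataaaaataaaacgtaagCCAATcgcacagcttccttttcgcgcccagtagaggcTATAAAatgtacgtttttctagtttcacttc
H2BC17, chr6:27893275-27893424, plus strand: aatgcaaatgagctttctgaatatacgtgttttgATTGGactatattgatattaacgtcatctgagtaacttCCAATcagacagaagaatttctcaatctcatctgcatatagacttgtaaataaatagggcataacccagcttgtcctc
H3C10, chr6:27809901-27810050, plus strand: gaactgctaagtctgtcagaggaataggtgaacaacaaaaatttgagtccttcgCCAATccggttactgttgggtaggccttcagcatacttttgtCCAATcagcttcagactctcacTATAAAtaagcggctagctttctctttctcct
H4C13, chr6:27873535-27873684, minus strand: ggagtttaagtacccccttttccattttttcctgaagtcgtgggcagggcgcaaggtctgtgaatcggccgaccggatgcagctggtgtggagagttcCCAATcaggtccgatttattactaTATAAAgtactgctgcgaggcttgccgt
H1-5, chr6:27867589-27867738, minus strand: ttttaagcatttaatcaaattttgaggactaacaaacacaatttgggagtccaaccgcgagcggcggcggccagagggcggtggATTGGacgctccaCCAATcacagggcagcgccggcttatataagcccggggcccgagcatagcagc
MEIS1, chr2:66434975-66435124, plus strand: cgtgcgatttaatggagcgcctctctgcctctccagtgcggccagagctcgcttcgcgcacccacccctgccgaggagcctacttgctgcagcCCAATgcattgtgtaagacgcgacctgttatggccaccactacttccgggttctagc

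In windows from 250 bases before to 50 after the start, read on both strands, CCAAT was found in 25 of 27 RefSeq windows (92.6%) of the histone genes at called loci and in 23 of 29 (79.3%) at histone loci that were not called, as against 34.6% of all 35116 promoter windows. TATAAA was found in 21 of 27 (77.8%), 21 of 29 (72.4%) and 11.5% in the same order, and matches of both motifs may overlap. Both elements were thus common to histone promoters whether or not the locus was called. The windows of the other genes of the loci called lower held CCAAT in 10 of 30 (33.3%), and those of the loci called higher in 1 of 11 (9.09%). Of 6 further motifs, the antioxidant response element core TGACNNNGC was found in 3 of the 27 histone windows and in 13.3% of all windows, and the heat shock element GAANNTTC in 1 and in 6.77%. The E2F site TTGGCGC was found in 1 of the 27 and in 3.04% of all windows, and the ETS site CCGGAAG in 1 and in 10.3%. The AP-1 site TGANTCA and the CEBP-ATF element TGATGNAA were found in none of the 27 and in 7.71% and 3.62% of all windows. A match describes the letters of a window and does not show binding.

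Acetylation of the replication-dependent histone genes was lower in PR-957. Of 70 such genes, 57 had a tested promoter locus, and they shared 28 loci because neighbouring histone genes lie under the same acetylated domain. H3K27ac was called lower at 10 of these loci, which hold 29 of the genes, and higher at none. In 26 of the 28 the fold change was negative, and in 24 both PR-957 libraries lay below both DMSO libraries, which was so at 20.0% of all promoter loci. The median log2 fold change was -0.31, against -0.01 for all promoter loci, of which 0.166% were called lower.

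The smallest p-value of the whole comparison belonged to a locus that holds 5 core histone genes, namely H3C10, H2AC13, H2BC13, H2AC14 and H2BC14 (chr6:27806458-27819148). Its level was 736 and 719.8 CPM in DMSO and 513 and 496 CPM in PR-957, ranges that do not overlap. That is 1.44-fold lower in PR-957 (log2 fold change -0.53, SE 0.05, adjusted p = 1.85e-21). The locus of H2AC17, H2BC17 and H3C12 was at 661 and 646 CPM in DMSO and at 512 and 461 CPM in PR-957 (log2 fold change -0.43, SE 0.05, adjusted p = 1.92e-12). These genes encode H2A, H2B and H3, the core histones around which DNA is wrapped. The locus of H2AC12, H2BC12 and H4C9 was at 497 and 529.6 CPM in DMSO and at 379 and 376 CPM in PR-957 (log2 fold change -0.44, adjusted p = 8.25e-11). The locus of H1-5, H2AC16, H3C11 and H4C13 was at 830.04 and 799 CPM in DMSO and at 653 and 625 CPM in PR-957 (log2 fold change -0.35, adjusted p = 4.44e-10). H1-5 encodes a linker histone, which binds DNA between nucleosomes and is made with the core histones in S phase. The other 6 called loci, those of H2AC6 and H2BC4, of H2AC7, H2BC7 and H3C4, of H2AC11 and H2BC11, of H1-1, H3C1, H4C1 and H4C2, of H2AC4 and H3C2, and of H4C12, had log2 fold changes between -0.45 and -0.30. The coding sequences of these genes are similar between copies, so some reads within them may fit more than 1 copy, which was not examined. Counts over whole loci rest in part on the flanks.

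All 10 called histone loci were on chromosome 6, where 23 histone loci lie between positions 25726562 and 27893425. The 43 other loci within the same stretch had a median log2 fold change of -0.06 with none called, and the 10 promoter loci among them had a median of -0.07. The histone loci of that stretch stood at a median DMSO level of 268 CPM and the other loci there at 18.4 CPM, so the test had less power at the latter. The 5 histone loci on other chromosomes, 4 on chromosome 1 and H4C16 on chromosome 12, also had negative fold changes, with a median of -0.33 and none called. Among them H2AC20, H2AC21 and H2BC21 shared a locus at 323 and 328 CPM in DMSO and 278 and 269.6 CPM in PR-957 (adjusted p = 0.1). The list of linker and replication-independent histones, such as H2AZ1 and H3-3A, had 9 loci with none called, 6 negative fold changes and a median of -0.07.

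Most histone calls held when any library was left out, with 9, 9, 10 and 7 of the 10 loci called without DMSO 1, DMSO 2, PR-957 1 and PR-957 2. Without PR-957 replicate 2, the loci of H2AC11, of H3C1 and of H4C12 were no longer called (adjusted p = 0.0949, 0.0904 and 0.195). H2AC4 was lost without DMSO 2 (0.106) and H4C12 without DMSO 1 (0.274).

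Acetylation also fell over part of the KMT2A target genes. Of the 21 targets named by the study, 18 had a tested promoter locus, and they lie in 13 loci because 6 HOXA genes share a single one. H3K27ac was called lower at 2 of these loci, which hold 7 genes, and higher at none, beside 0.166% of all promoter loci called lower and 0.0415% called higher. The fold change was negative at 10 of the 13, with a median of -0.07. Over all promoter loci 51.5% were negative with a median of -0.01, and over the 6125 loci of the highest levels 57.1% with a median of -0.03. The list was taken from the study's text, which names these genes, with the HOXA cluster as a group, as lower in RNA. Its direction is thus no independent evidence. From its Cut&Tag data, H3K27ac included, the study reported no detectable change in the modifications it related to the KMT2A complex. In a second list of 20 KMT2A fusion targets from general knowledge, 17 loci were tested, 13 had a negative fold change, and MBNL1 was called lower.

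MEIS1 encodes a homeodomain cofactor that binds DNA together with HOXA9 and is required by these leukemias. Its promoter locus (chr2:66432796-66447645) was at 829 and 841 CPM in DMSO and at 676 and 687 CPM in PR-957, and all 4 libraries separate by treatment. The level was 1.22-fold lower in PR-957 (log2 fold change -0.29, SE 0.05, adjusted p = 1.06e-06), and the locus was called in each of 15 alternative analyses, with an adjusted p of at most 0.02. At the HOXA cluster a single acetylated domain was merged from 10 intervals (chr7:27147351-27194261). It held starts of HOXA3, HOXA6, HOXA7, HOXA9, HOXA10 and HOXA11, but none of HOXA4 or HOXA5. Its count is that of the widest interval (chr7:27147867-27178141), so the rest of the domain was not measured. The level was 896 and 922 CPM in DMSO and 812 and 772 CPM in PR-957, 1.15-fold lower (log2 fold change -0.20, SE 0.04, adjusted p = 0.00976). The HOXA genes, HOXA9 foremost, encode homeodomain factors that keep blood progenitors immature. HOXA13 had a locus of its own that was not called (log2 fold change 0.09, adjusted p = 0.982). The HOXA call held in 9 of 15 alternatives and was lost with a robust fit, cyclic loess offsets and a mean count of at least 50 (adjusted p = 0.072, 0.416 and 0.081). With a library left out, the adjusted p was 0.00332 without DMSO 1, 0.121 without DMSO 2, 0.0946 without PR-957 1 and 0.402 without PR-957 2, and the log2 fold change stayed negative.

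None of the other targets of the study passed the test at its promoter. The promoter of CDK6, a G1 kinase, was at 595 and 583 CPM in DMSO and 549.6 and 549 CPM in PR-957 (log2 fold change -0.10, adjusted p = 0.732). Both PR-957 libraries were thus below both controls by a small amount, as at 20.0% of all promoter loci tested. FLT3, the receptor tyrosine kinase that carries an internal tandem duplication in this line, was at 303 and 301 CPM against 273 and 282 CPM (log2 fold change -0.12, adjusted p = 0.797). CDK9, the kinase of the elongation factor P-TEFb, was at 59.1 and 59.6 CPM against 50.0 and 52.3 CPM (log2 fold change -0.21, adjusted p = 0.888). At MEF2C, RUNX2 and VENTX, which encode transcription factors, the libraries of both groups overlapped. The receptor tyrosine kinase AXL went the other way, at 31.3 and 38.8 CPM in DMSO and 47.9 and 43.9 CPM in PR-957, with a log2 fold change of 0.40 that was not called (adjusted p = 0.654).

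MBNL1, an RNA-binding splicing regulator, was at 398 and 421 CPM in DMSO and 339 and 350.5 CPM in PR-957 (log2 fold change -0.24, adjusted p = 0.0482). Its call held in 4 of 15 alternatives, with an adjusted p of 0.509, 0.422 and 0.208 without DMSO 2, PR-957 1 and PR-957 2. The KMT2A promoter itself was at 47.5 and 53.4 CPM in DMSO and 47.3 and 54.8 CPM in PR-957, and these ranges overlap. The list of partners of the fusion, with DOT1L, MEN1 and the elongation complexes, had 15 loci, none called, and a median log2 fold change of -0.02.

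Among distal loci, elements near MYC and PBX3 were called lower. MYC, the transcription factor that drives growth and proliferation, had 42 distal loci for which its start was the nearest. The one that was called lies 192960 bases from the start, over exons of the noncoding genes PVT1 and LINC02912 (chr8:127930705-127952868). It was at 116 and 118 CPM in DMSO and at 92.5 and 73.1 CPM in PR-957, so the groups do not overlap, and 1.43-fold lower (log2 fold change -0.52, SE 0.11, adjusted p = 0.00952). Across the 42 the median log2 fold change was -0.19, against 0.02 for all distal loci, and in 19 both PR-957 libraries were below both controls while in 4 both were above. Over all distal loci these shares were 16.1% and 17.5%. The loci next to each other share a chromosome region and are not independent. The MYC promoter was at 217 and 206 CPM in DMSO and at 179.9 and 187 CPM in PR-957, which was not called at a log2 fold change of -0.21 (adjusted p = 0.516). The distal call was lost without DMSO 1, DMSO 2 or PR-957 2 (adjusted p = 0.137, 0.18 and 0.458).

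PBX3 encodes a further homeodomain partner of HOXA9. A locus in its intron, 3734 bases from the start (chr9:125751933-125754520), was at 18.7 and 17.7 CPM in DMSO and at 9.45 and 5.09 CPM in PR-957, which is 2.58-fold lower (log2 fold change -1.37, SE 0.33, adjusted p = 0.043). The PBX3 promoter was at 302 and 299 CPM against 283 and 289 CPM and was not called (log2 fold change -0.07, adjusted p = 0.931). The 9 distal loci nearest PBX3 did not move together, with log2 fold changes from -1.37 to 1.67 and a median of 0.35. The call at the intronic locus was lost at an adjusted p of 0.398, 0.268 and 0.475 without DMSO 1, DMSO 2 and PR-957 2.

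**Figure D2:**
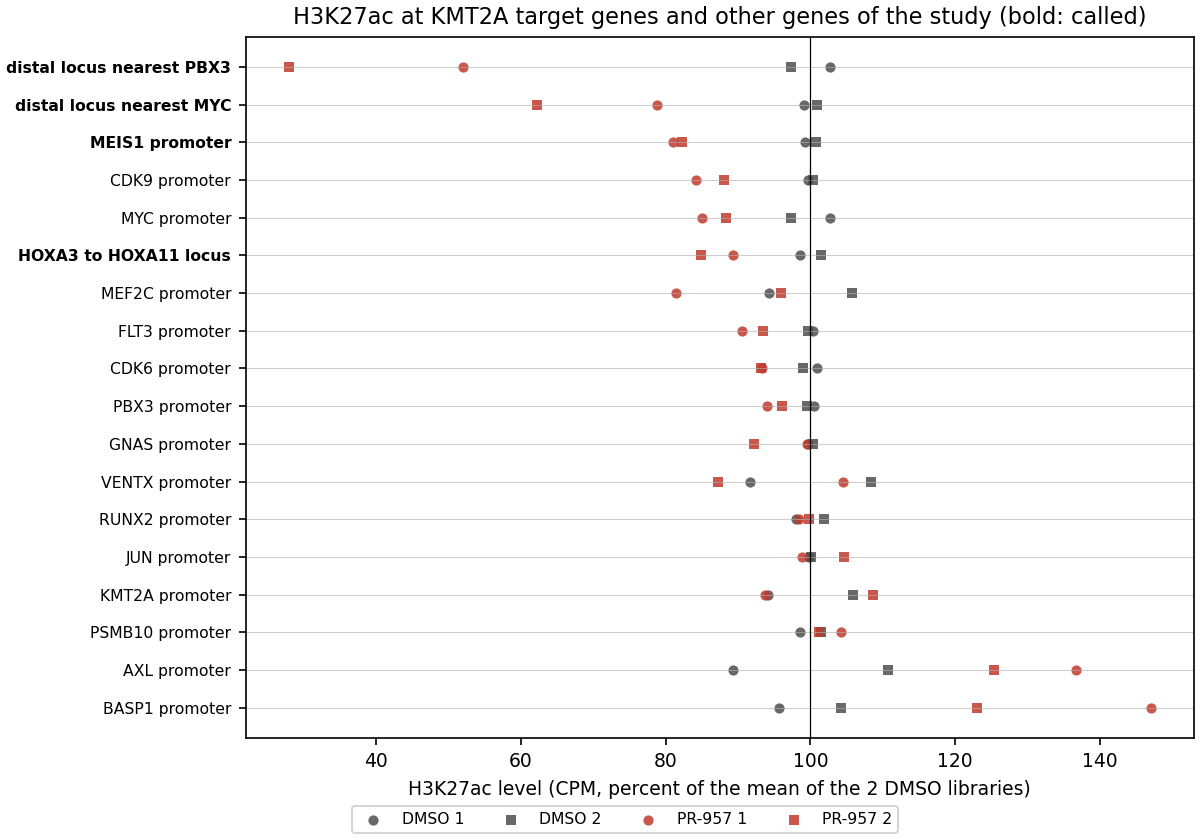
H3K27ac level of each library at the promoter loci of genes that the study discusses and at the called distal loci nearest MYC and PBX3, in percent of the mean CPM of the 2 DMSO libraries (horizontal). The PR-957 libraries lie below both DMSO libraries at MEIS1 and at the locus labelled HOXA3 to HOXA11, which are called (bold), and above them at AXL and BASP1, which are not.

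The remaining 8 promoter loci called lower belonged to EIF4A2, IER2, SLC3A2, DACH1, ELF1, ARPC2, KCNN2 and MBNL1. EIF4A2, an RNA helicase of translation initiation, was at 235 and 230.4 CPM in DMSO and at 174 and 170.2 CPM in PR-957 (log2 fold change -0.44, SE 0.08, adjusted p = 0.000109). It remained called in 14 of 15 alternatives and was at an adjusted p of 0.0614 without PR-957 2. IER2, an immediate early gene that shares its locus with STX10, was at 543 and 537 CPM against 431 and 466 CPM (log2 fold change -0.27, adjusted p = 0.00232, and 0.361 without PR-957 1). SLC3A2 encodes the heavy chain of amino acid transporters, and its locus was at 181 and 175 CPM against 135 and 136 CPM (log2 fold change -0.40, adjusted p = 0.0147, and 0.106 to 0.256 with any library left out). DACH1, a transcription factor, was at 608 and 613 CPM against 553 and 498 CPM (log2 fold change -0.22, adjusted p = 0.0257). Without DMSO 1, DMSO 2 and PR-957 2 its adjusted p was 0.0559, 0.143 and 0.576. The locus of ELF1, an ETS factor of blood cells, showed the largest fall of a called promoter, 2.13-fold, but at low levels of 32.8 and 21.8 CPM against 10.1 and 15.3 CPM (adjusted p = 0.0283, but 0.795 without DMSO 1 and 0.362 without PR-957 1). For ARPC2, a subunit of the actin-branching ARP2/3 complex, and KCNN2, a potassium channel, the log2 fold changes were -0.46 and -0.35 (adjusted p = 0.045 for both). ARPC2 lost its call with any library left out (adjusted p = 0.0769 to 0.402), and KCNN2 without DMSO 2, PR-957 1 and PR-957 2 (0.695, 0.102 and 0.431).

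A feature shared by 4 of the loci called lower was a small nucleolar RNA (snoRNA) gene within the locus. SnoRNAs guide the modification of ribosomal RNA, and most human ones are cut from introns of host genes. The 4 loci cover EIF4A2, SNHG1 beside SLC3A2, SNHG29 beside TRPV2 and SNHG5 in the stretch whose nearest protein-coding start is that of SYNCRIP, of which the last 2 are counted as distal because their host genes are noncoding. The SNHG29 locus was at 353 and 367 CPM in DMSO and at 307 and 286 CPM in PR-957 (log2 fold change -0.28, adjusted p = 0.0171), and the SNHG5 locus at 278 and 273 CPM against 226 and 220.1 CPM (log2 fold change -0.31, adjusted p = 0.0283). The former lost its call without DMSO 2, PR-957 1 and PR-957 2 (adjusted p = 0.24, 0.0794 and 0.382), and the latter with any library left out (0.146 to 0.295). Of 88 tested loci that overlap a snoRNA gene these 4 were called, beside 0.131% of all loci and 30 of the 6125 loci of the highest levels (0.49%). Over the 88, 63 (71.6%) had a negative fold change and the median log2 fold change was -0.12. This group was chosen after its values were seen, and for comparison 57.1% of the 6125 loci of the highest levels had a negative fold change, with a median of -0.03.

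A further 9 distal loci were called lower. The largest ratio, 2.98-fold, was at an exon of TP53BP2, with 18.2 and 19.1 CPM in DMSO and 4.73 and 7.4 CPM in PR-957 (adjusted p = 0.00674). ASAP1, PTK7 and CAMK2D each had a called locus inside an intron, with log2 fold changes of -0.80, -1.26 and -1.35. A locus 5506 bases from the start of BMI1, a Polycomb gene that maintains stem cells, was at 704 and 751 CPM against 654 and 609.5 CPM (log2 fold change -0.20, adjusted p = 0.025). That locus lies over exons of noncoding genes and does not overlap BMI1. PICK1, PYGB and CLVS1 had the nearest start to 3 more, with log2 fold changes between -0.70 and -0.56. The last lies on the short arm of chromosome 21 (chr21:8232914-8235165) and overlaps no annotated gene. Its level was 123 and 145 CPM against 93.5 and 91.6 CPM (adjusted p = 0.00201), but sequence there is repeated on other chromosomes, so its reads cannot be placed with certainty. Each of these calls was lost in at least 1 of the 4 fits that leave out a library. The adjusted p of TP53BP2 was 0.161, 0.194 and 0.197 without DMSO 1, DMSO 2 and PR-957 1, and that of BMI1 was 0.483, 0.0946 and 0.5 without DMSO 2, PR-957 1 and PR-957 2. The chromosome 21 locus reached 0.449 without DMSO 2 and 0.118 without PR-957 2. ASAP1 and CAMK2D were lost without DMSO 1 (0.478 and 0.655) and without PR-957 1 (0.101 and 0.441), ASAP1 also without PR-957 2 (0.118) and CAMK2D without DMSO 2 (0.146). PTK7 was lost without DMSO 1, PR-957 1 and PR-957 2 (1, 0.297 and 0.161) and CLVS1 without DMSO 1, DMSO 2 and PR-957 2 (0.233, 0.514 and 0.57). PICK1 and PYGB were lost with any library left out (0.0568 to 0.482 and 0.0769 to 0.508).

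Fewer loci were called higher for H3K27ac and, except at TPM4 and NR4A3, these began from low levels. TPM4 encodes a tropomyosin that stabilises actin filaments. Its promoter locus (chr19:16073152-16086591) was at 225 and 243 CPM in DMSO and at 297 and 338 CPM in PR-957, which do not overlap, and 1.36-fold higher (log2 fold change 0.45, SE 0.07, adjusted p = 7.86e-07). It was the only gain called in 14 of 15 alternatives, and its adjusted p without PR-957 2 was 0.125. The locus shared by HES4, a repressor of the Notch pathway, and ISG15, a ubiquitin-like protein induced by interferon, was at 33.1 and 22.8 CPM in DMSO and at 46.6 and 55.0 CPM in PR-957. It was 1.8-fold higher (log2 fold change 0.85, SE 0.19, adjusted p = 0.00902), with an adjusted p of 0.59 without DMSO 2 and 0.288 without PR-957 2. Of 11 tested promoter loci of interferon response genes this was the only one called, beside 0.0415% of all promoter loci called higher. Of the 11, 6 had a negative fold change, and the median was -0.01.

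NR4A3, an orphan nuclear receptor that restrains myeloid leukemia, was at 150.0 and 147 CPM in DMSO and at 193 and 187 CPM in PR-957 (log2 fold change 0.35, SE 0.09, adjusted p = 0.045). Its paralog NR4A1 was at 55.6 and 55.5 CPM against 71.6 and 70.8 CPM, with a log2 fold change of 0.36 that was not called (adjusted p = 0.536). BCAR1, an adaptor of integrin signalling, rose 3.34-fold from 3.54 and 5.79 CPM to 15.9 and 14.8 CPM (adjusted p = 0.0128). The adhesion gene NRXN2 rose 2.64-fold from 7.07 and 6.81 CPM to 23.6 and 13.9 CPM (adjusted p = 0.0285). Counts behind these values were few, from 14 to 64 reads per library at BCAR1 and from 20 to 70 at NRXN2. A distal gain was over an exon of PRDM13, a zinc finger gene of neural development, from 20.7 and 19.4 CPM to 36.5 and 40.2 CPM (log2 fold change 0.94, adjusted p = 0.0219). The calls at NR4A3 and PRDM13 were lost whichever library was left out, with an adjusted p of 0.199 to 0.403 and 0.0769 to 0.305. BCAR1 was lost without DMSO 1, PR-957 1 and PR-957 2 (0.384, 0.107 and 0.0949), and NRXN2 without DMSO 1, DMSO 2 and PR-957 1 (0.235, 0.234 and 0.567).

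The 7 loci called higher were richer in G and C than those called lower, with a median GC content of 61.9% against 46.0% for the 33 lower loci and 52.8% for all loci tested. GC content differed between libraries in its relation to counts, with correlations across loci of log2 deviation and GC of -0.054 and -0.012 in DMSO and 0.068 and -0.014 in PR-957. With offsets that remove each library's trend on GC content, 37 loci were called, 33 of them shared with the 40, and 4 loci were higher instead of 7. All 10 histone loci stayed called.

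The called loci were then compared with the other modifications profiled in the same cells and treatments. H3K4me3, found at promoters, was present at 29 of the 33 loci called lower, and none of these was called for H3K4me3, where 32 of 16122 loci (0.198%) were called. Its log2 fold change was negative at 23 of the 29 with a median of -0.07, as compared with -0.01 over all H3K27ac loci that overlap it. At the 10 histone loci the median change of H3K4me3 was -0.04, while that of H3K27ac lay between -0.53 and -0.30 at each. H3K4me1, found at enhancers, was present at 26 of the 33 with none called, against 543 of 34927 loci (1.55%) of that modification, and 21 of the 26 had negative fold changes, as did 68.9% of all H3K27ac loci that overlap it.

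H3K27me3, laid by the Polycomb complex PRC2 on silent developmental genes, was called at 498 of 12355 loci (4.03%). It overlapped 4 of the 7 loci with a gain of H3K27ac, 3 of the 33 called lower and 2287 of all 30621 loci tested. At those 2287 loci the overlapping H3K27me3 was called lower at 151 and higher at 14, so called losses were the more common direction there too. At PRDM13, H3K27me3 was at 1739 and 1721 CPM in DMSO and at 1309 and 1250.4 CPM in PR-957 (log2 fold change -0.43, adjusted p = 9.99e-10). At BCAR1 it was at 724 and 677 CPM against 529 and 543 CPM (log2 fold change -0.39, adjusted p = 4.37e-06), and at NR4A3 at 129 and 131 CPM against 93.3 and 89.6 CPM (log2 fold change -0.51, adjusted p = 0.00141). These values are of the H3K27me3 loci that overlap the gains, which span 37.9, 45.7 and 10.2 kb and share 2653, 2870 and 1969 bases with them, so the loss of H3K27me3 is not placed at the acetylated stretch itself. At the locus that overlaps HES4 and ISG15 the H3K27me3 log2 fold change was -0.02. At the HOXA locus, where H3K27ac was lower, H3K27me3 over the wider cluster was lower too, at 15472 and 14704 CPM against 11334 and 10016 CPM (log2 fold change -0.50, adjusted p = 2.36e-15). The direction at HES4 and ISG15 depended on scaling, because with library size alone its H3K27me3 was higher in PR-957 (log2 fold change 0.18, adjusted p = 0.000395). With that scaling, H3K27me3 remained lower at HOXA (-0.29), PRDM13 (-0.23), BCAR1 (-0.17) and NR4A3 (-0.30), and only the last was no longer called (adjusted p = 0.195).

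**Figure D3:**
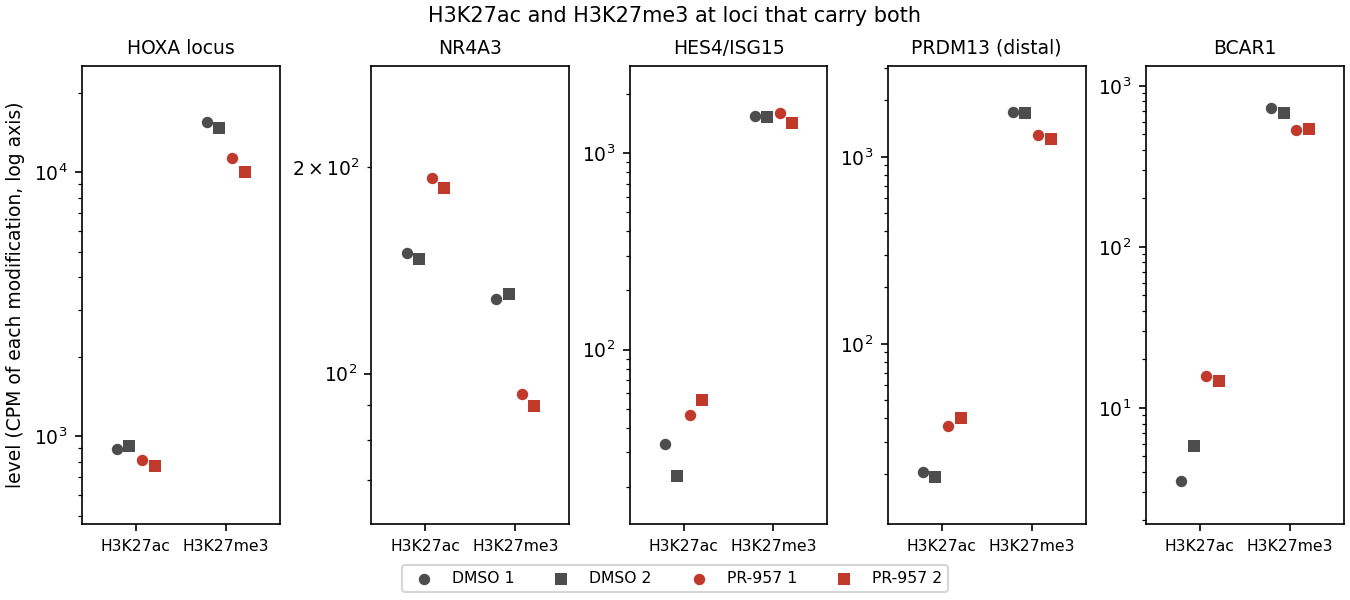
Levels of H3K27ac and H3K27me3 in each library, in CPM of the modification on log axes, at the 5 called H3K27ac loci drawn, with H3K27me3 taken from the locus that overlaps each, and with grey for DMSO and red for PR-957. H3K27ac is higher and H3K27me3 lower in both PR-957 libraries at NR4A3, PRDM13 and BCAR1, whereas both are lower over the HOXA locus.

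Gene lists beyond the histone and KMT2A targets held few called loci, with medians from -0.14 to 0.09. Over all promoter loci the median was -0.01, and 51.5% had a negative fold change. Promoters of mitotic genes had negative fold changes at 21 of 24 loci with a median log2 fold change of -0.14, and none was called. CENPF, a kinetochore protein, was at 32.8 and 44.2 CPM in DMSO and at 20.9 and 24.5 CPM in PR-957 (log2 fold change -0.74, adjusted p = 0.157), and MKI67, the proliferation marker, was at 26.3 and 32.7 CPM against 18.9 and 19.0 CPM (adjusted p = 0.494). In the DNA replication list 19 of 30 loci had negative fold changes, with TYMS, the thymidylate synthase, at -0.52 (adjusted p = 0.292), a median of -0.08 and none called. Cytosolic ribosomal protein genes had negative fold changes at 25 of 28 loci with a median of -0.10, and RPL4 came closest to the threshold, at 236 and 259 CPM in DMSO and 203 and 201 CPM in PR-957 (log2 fold change -0.29, adjusted p = 0.0868). Myeloid transcription factors had negative fold changes at 16 of 19 loci with a median of -0.09, among them MYB at -0.19 (adjusted p = 0.494).

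The proteasome and stress response genes, which are known to respond when proteasome function is lost, held no called locus. Core and regulatory proteasome subunits had positive fold changes at 22 of 33 loci with a median of 0.06, and none was called. PSMA7, a subunit of the outer ring, was at 131 and 127 CPM in DMSO and at 146 and 159 CPM in PR-957 (log2 fold change 0.25, adjusted p = 0.494). Both PR-957 libraries were above both controls there, as at 17.9% of all promoter loci tested. Antioxidant targets of NFE2L2 had positive fold changes at 19 of 23 loci and a median of 0.09, and GCLM, a subunit of the enzyme that starts glutathione synthesis, was at 44.7 and 50.03 CPM against 67.9 and 55.0 CPM (log2 fold change 0.37, adjusted p = 0.593). The list of the unfolded protein and integrated stress response had 16 of 24 negative fold changes and a median of -0.06. The heat shock response had 8 of 14 negative fold changes and a median of -0.02. HSP90AA1, a chaperone, was at 169.5 and 189 CPM against 152 and 153 CPM (log2 fold change -0.23, adjusted p = 0.494), and TRIB3, induced by amino acid stress, had a log2 fold change of -0.28 (adjusted p = 0.552).

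The drug target PSMB8 and its partner PSMB9 had no tested promoter locus, and neither did 13 others of the 19 genes of the immunoproteasome and antigen presentation. Whether the list of intervals is complete at these genes is not known, so a missing locus does not show that H3K27ac is absent. The 4 loci of this list that were tested had a median log2 fold change of -0.03 with none called. PSMB10, the remaining catalytic subunit of the immunoproteasome, was at 55.8 and 57.5 CPM in DMSO and 59.1 and 57.3 CPM in PR-957 (log2 fold change 0.04, adjusted p = 0.993). BASP1, a corepressor of WT1, was at 11.9 and 12.9 CPM in DMSO and at 18.2 and 15.3 CPM in PR-957. The PR-957 libraries were both above the controls, as at 17.9% of all promoter loci tested. The log2 fold change of 0.43 (SE 0.30) was not called (adjusted p = 0.878). The list of BASP1, WT1 and their cofactors PHB1 and PHB2 had 4 loci with a median of -0.01. In the list of AP-1 and immediate early genes IER2 was the only one called of 19, and the median was -0.01. Over all promoter loci 0.166% were called lower. JUN, a subunit of AP-1, was at 66.2 and 66.4 CPM against 65.5 and 69.4 CPM, and GNAS, a G protein subunit, at 156 and 157 CPM against 155 and 144 CPM. Lists of NF-kB, p53 and BCL2 family genes, of G1 cyclins, of autophagy and ubiquitin genes, of myeloid surface genes and of glycolysis and lipid synthesis held no called locus, with medians from -0.06 to 0.05. MCL1, the apoptosis inhibitor, had the smallest p-value of the BCL2 family, at 159.6 and 181 CPM in DMSO and 142 and 135 CPM in PR-957 (log2 fold change -0.30, adjusted p = 0.235), and MPO, the granule peroxidase, that of the myeloid surface and granule genes (log2 fold change -0.46, adjusted p = 0.168).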

How the data were processed

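The deposited files hold raw counts per interval, without normalization, that the authors made for each library on a list of intervals per modification, and the 4 H3K27ac libraries share 1 list. The submitters' processing notes name Trimmomatic 0.39, Bowtie2 2.2.5, Picard 2.27.1, SAMtools 1.7, SEACR 1.3 and deepTools 3.5.1 with hg38, and the methods name MACS2 or SEACR for peaks without saying which served Cut&Tag. The counter and the treatment of duplicates are not given in the sources used here, and reads are not independent molecules. The 2 IgG samples are not analysed here.

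Overlapping intervals were merged to loci and each locus took the count of its widest interval. Loci within 2 kb of the TSS of a protein-coding transcript of GENCODE 44 were promoter loci. Loci were kept by filterByExpr (minimum count 10), scaled by TMM and compared between PR-957 and DMSO, grouped by the labels, with the quasi-likelihood test of edgeR 4.0.16 in R 4.3.3 and Benjamini-Hochberg adjustment over all loci of the modification, at 0.05. The script was tested on simulated data, in which at most 1 unchanged locus was called. Genes named in the text are those of every called locus except 1 distal locus that is not reported here, 19 genes that the study discusses, and up to 4 genes per list with the smallest p-values. The members and lists were chosen with earlier results of these data known. The alternatives replaced TMM by the factors of DESeq2, by library size or by cyclic loess offsets, the test by DESeq2 1.42.0, and the count filter by none or by a mean count of 50 or more. Others entered the replicate number as a block, took the interval of highest mean count or every interval as listed, used windows of 1 and 5 kb, adjusted p-values within promoter and distal loci, and left out each library. With every interval as listed, each locus took its interval with the smallest p-value, so a locus counted as called if any of its intervals was. Offsets for GC content (loess span 0.3), a robust fit, the TSS of all transcripts of protein-coding genes, and library size only for H3K27me3 were added after seeing the data.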

Additional observations from a re-analysis of the deposited data

How the results depend on the processing

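With another scaling, test or filter, no called locus turned its direction, as 404 of the values of called loci under the alternatives kept their call and 174 lost it. Of the 10 histone loci, at least 7 were called under each alternative fit. The counts of called loci, in the order promoter higher, promoter lower, distal higher and distal lower, were 5, 20, 2 and 13. The values that moved by more than 1.5 times were as follows. Promoter loci higher were 3 with GC content offsets and with a robust fit, 1 with cyclic loess offsets and with DESeq2, 11 with a mean count of at least 50 and 15 loci when every interval was tested as listed. Promoter loci lower were 11 with cyclic loess offsets. Distal loci higher were 1 with GC content offsets, with a robust fit and with p-values adjusted within promoter and within distal loci, 0 with cyclic loess offsets and with DESeq2, 5 with a mean count of at least 50 and 5 with every interval as listed. Distal loci lower were 6 with library size only, 0 with cyclic loess offsets, 2 with DESeq2, 4 with a mean count of at least 50, 22 with every interval as listed, 8 with the TSS of all transcripts of protein-coding genes and 7 with adjustment within the classes. Leaving out a library gave 1 to 3 promoter loci higher, 11 to 18 lower, 0 to 2 distal loci higher and 2 to 8 lower. H3K27me3 at HES4 and ISG15 turned from a log2 fold change of -0.02 to 0.18 with library size only. The cause of these moves was not tested. The difference in the share of counts at promoters ranged from -0.32 to 0.25 percentage points when a library was left out. With the replicate number as a replicate block, 4, 17, 2 and 11 loci were called, 33 of them shared with the 40. The numbers did not pair the libraries, since same-numbered deviations from the group means correlated at -0.012. In the simulation at these depths, 11.5% of loci changed by 1.5-fold and 42% of those changed by 2-fold were called.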

Other observations

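Chromosome 8 held 2922 of the 30621 tested loci, more than chromosome 1 with 2661, and its median log2 fold change was -0.01 with 3 loci called. The loci nearest MYC, ASAP1 and CLVS1 are the called ones there, and what part the number of copies of this chromosome has in these counts was not tested. Among genes of protein clearance, GABARAPL1, a carrier of autophagosomes, was at 81.3 and 119 CPM in DMSO and 124 and 128 CPM in PR-957 (log2 fold change 0.35, adjusted p = 0.228 in edgeR). ULK1, the kinase that starts autophagy, was at 13.4 and 10.9 CPM against 22.96 and 19.4 CPM (log2 fold change 0.78, adjusted p = 0.437). Both PR-957 libraries lay above both controls at these promoters, as at 17.9% of all promoter loci tested, and neither locus passed the test.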
